A study of Homo sapiens with 9 samples.

Results

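Integrins, laminins and collagens are the genes by which an epithelial cell holds on to the matrix around it. Their genes were taken from the counts table by symbol, from rows named ITGA followed by a number, V or E, ITGB followed by a number, LAMA, LAMB or LAMC followed by a number, or COL, number, A, number. Described here are 31 genes of the 11350 in the table, of which 10 encode integrin chains (7 alpha and 3 beta), 8 laminin chains and 13 collagen chains.

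Poly(A) RNA was sequenced from 3 lines of HCT116, a human colorectal carcinoma cell line, with 3 libraries each, all without treatment. HUWE1-P is the parental line. HUWE1-CS cells carry a serine in place of the catalytic cysteine of HUWE1, a large HECT-type ubiquitin ligase, and HUWE1-WT cells went through the same knock-in with the cysteine kept. Both edited lines therefore also carry the repair template's P2A and blasticidin resistance sequence, went through guide RNA transfection and drug selection, and were grown from single cells, so that the mutation and the history of a clone cannot be told apart in HUWE1-CS. The study describes the libraries of a line as biological replicates from distinct samples. Whether these came from separate clones or cultures was not given in the sources used here. The p-values measure the spread between these libraries, for each gene drawn strongly towards that of all genes.

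Integrins are receptors of 1 alpha and 1 beta chain that span the plasma membrane and tie matrix proteins outside the cell to the actin or keratin cytoskeleton inside it. Laminins are trimers of an alpha, a beta and a gamma chain and build the basement membrane sheet on which gut epithelium sits. Collagens are triple helices: fibrillar types give tissue its strength, network and multiplexin types belong to basement membranes, and other types decorate fibrils. ITGB1 pairs with many alpha chains, among them ITGA2 (which binds collagen), ITGA3 and ITGA6 (which bind laminin) and ITGA5 (which binds fibronectin), whereas ITGA6 with ITGB4 forms the core of the hemidesmosome.

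The libraries held between 1610984 and 2060349 counts. HUWE1 itself was at 543 ± 19.8 CPM (counts relative to the library total, scaled by TMM factors; mean ± SD, n = 3) in HUWE1-P, 469 ± 25.8 in HUWE1-WT and 336 ± 11.7 in HUWE1-CS, and gene counts do not read the edited codon. Of 12 epithelial markers 10 matched a row. Their summed level was 4433 to 4576 CPM in HUWE1-P, 4456 to 4868 in HUWE1-WT and 4103 to 4485 in HUWE1-CS. Of these 10, 4 were called higher and 2 lower in HUWE1-CS against each control line (edgeR FDR at most 0.01). Over all genes tested, 8.46% were called higher and 8.58% lower against HUWE1-P, and 7.42% and 8.08% against HUWE1-WT. Among markers of other cell types, 2 of 12 for fibroblasts and mesenchyme (ACTA2 and TAGLN), 1 of 8 for leukocytes (CD68) and 0 of 8 for endothelium matched a row. The summed level of ACTA2 and TAGLN was 7.45 to 13.97 CPM in HUWE1-P, 11.0 to 15.3 in HUWE1-WT and 12.2 to 16.0 in HUWE1-CS. ACTA2 was called higher in HUWE1-CS against HUWE1-P (log2 fold change 2.01, edgeR FDR 0.000384) and not against HUWE1-WT (0.80, FDR 0.121). What part this had in the results below was not tested.

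The 31 genes spanned a wide range of levels. Per transcript length (RPKM, the CPM divided by the length of the canonical transcript in kb), ITGB1, the shared beta chain, was the highest of them at 126 ± 1.3 in HUWE1-P, 133 ± 4.0 in HUWE1-WT and 112 ± 5.9 in HUWE1-CS (SD, n = 3). ITGA3, a laminin-binding alpha chain, came next at 66.4 ± 2.6, 69.3 ± 4.3 and 67.2 ± 7.4 RPKM, followed by ITGB4 at 56.5 ± 3.0, 63.2 ± 6.9 and 53.8 ± 5.5. In HUWE1-WT the ranges of 1 SD around ITGA3 and ITGB4 overlapped, and in HUWE1-P and HUWE1-CS they did not. COL18A1 was the highest collagen over all 9 libraries, but in the control lines it stood at 28.4 ± 1.4 and 28.4 ± 3.5 RPKM, within 1 SD of COL6A1 and COL6A2 when the SDs of both genes are counted, and in HUWE1-CS at 56.6 ± 2.8. The highest laminin was LAMA5 at 21.3 ± 2.3, 18.9 ± 2.2 and 17.8 ± 1.3 RPKM. At the low end, 7 of the 31 genes had fewer than 10 counts in at least 1 library, and the fewest counts of any gene in any library were 3.

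**Figure D1:**
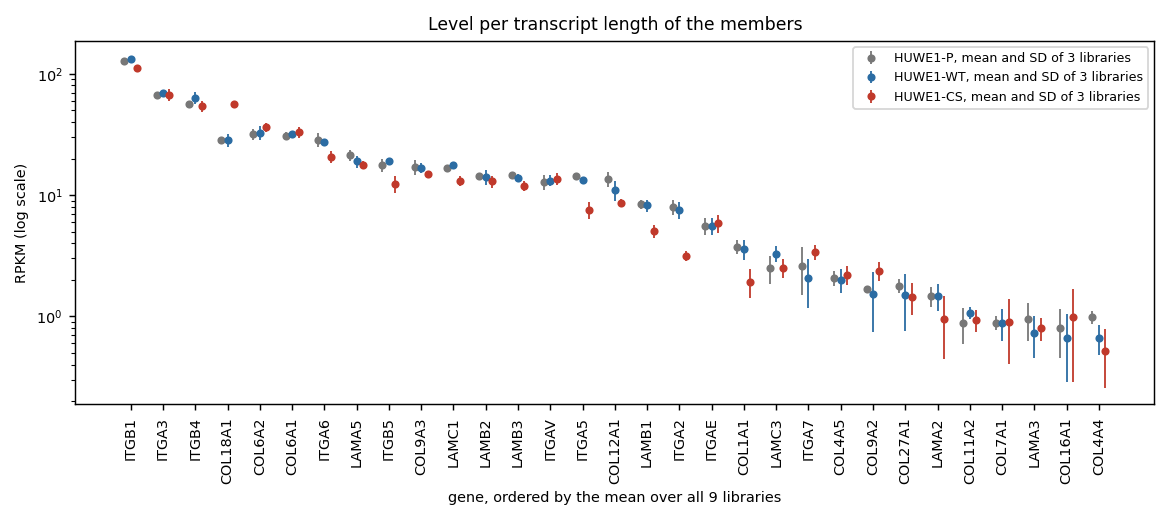
Level per transcript length (RPKM, log axis) of the 31 genes in HUWE1-P (grey), HUWE1-WT (blue) and HUWE1-CS (red); points are means of 3 libraries and bars 1 SD, and genes are ordered by the mean of all 9 libraries. ITGB1 lies highest, and COL18A1 is the gene whose HUWE1-CS point stands clearly above both control points.

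Most of the genes that differed in HUWE1-CS cells were lower there. Against HUWE1-P, 8 of the 31 genes were called lower and 1 higher at a false discovery rate (FDR, adjusted over all 11350 genes) of at most 0.01 with edgeR's quasi-likelihood test, while 8.58% of all genes tested were called lower and 8.46% higher. Against HUWE1-WT, 9 were called lower and 1 higher, where the background was 8.08% and 7.42%. The genes called lower in both were ITGA2, ITGA5, ITGA6, ITGB5, LAMB1, LAMC1, COL1A1 and COL12A1, the gene called lower only against HUWE1-WT was ITGB1, and the gene called higher in both was COL18A1. These comparisons share the HUWE1-CS libraries and are not independent of each other. The median log2 fold change of the 31 genes was -0.17 against each control line, beside -0.01 and 0.00 over all genes.

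By group, integrins had 4 of 10 genes lower against HUWE1-P and 5 of 10 against HUWE1-WT, with none higher. Laminins had 2 of 8 lower in each comparison, with none higher, and collagens 2 of 13 lower and 1 higher in each. The medians against HUWE1-P and HUWE1-WT were -0.12 and -0.24 for integrins, -0.27 and -0.31 for laminins, and 0.08 and 0.03 for collagens. In 10 of the 31 genes all 3 HUWE1-CS libraries lay below all 6 control libraries, against 13.4% of all genes, and in 1 they lay above, against 12.9%. Those 10 were the 8 genes called lower in both comparisons, ITGB1 and LAMB3, a beta chain of epithelial laminin.

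Between the control lines, none of the 31 genes was called, where 0.0617% of all genes were. The median log2 fold change of the 31 genes in HUWE1-WT against HUWE1-P was -0.02, and DESeq2 called 0. An unadjusted p under 0.05 with edgeR was found for 4 of the 31 genes, 2 of them lower in HUWE1-WT, and for 629 of all 11350 genes. The smallest FDR of the 31 genes was 0.401, for COL12A1.

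**Figure D2:**
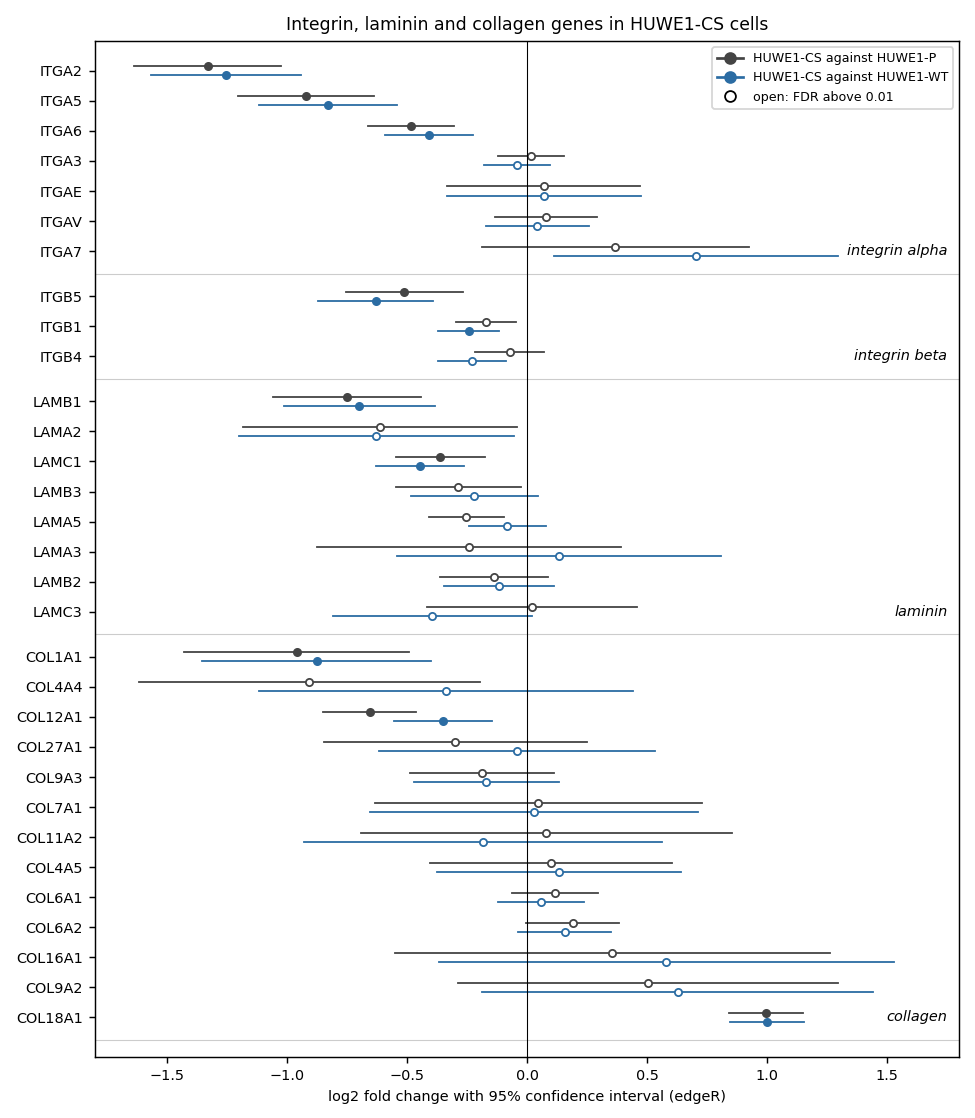
Log2 fold change (edgeR) of each of the 31 genes in HUWE1-CS against HUWE1-P (grey) and against HUWE1-WT (blue), with 95% confidence intervals; filled points passed an FDR of 0.01 and genes are grouped by family. Filled points lie to the left of 0 for 3 integrin alpha, 2 integrin beta, 2 laminin and 2 collagen genes, and to the right for COL18A1.

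These counts changed when a trend with transcript length was removed and when single libraries were left out. The 31 genes have a median canonical transcript of 5816 bases, beside 3361 over all genes. For transcripts of 8000 bases the smoothed deviation from the mean of all libraries was on the log2 scale 0.06, 0.05 and 0.08 in HUWE1-P, 0.07, -0.03 and 0.00 in HUWE1-WT and -0.04, -0.15 and -0.03 in HUWE1-CS. With this trend removed from every library, 8 genes were called against HUWE1-P, LAMC1 no longer among them, and 9 against HUWE1-WT, without COL12A1. In the same fit 1888 and 1789 of all genes were called. The median of the 31 genes became -0.07 and -0.11, beside 0.006 and 0.012 over all genes. Without HUWE1-CS replicate 2, whose trend was the steepest, 8 genes were called against HUWE1-P and 6 against HUWE1-WT. Of all genes, 1495 and 1386 were then called, where the full fit called 1934 and 1759. Without HUWE1-CS replicate 1, 9 and 9 of the 31 were called, and without replicate 3, 8 and 8. The calls over all genes were 1559 and 1407 without replicate 1, and 1650 and 1470 without replicate 3. What caused these changes was not tested. DESeq2 called 6 and 8 of the 31. Over all genes it called 1088 against HUWE1-P and 998 against HUWE1-WT, where edgeR called 1934 and 1759.

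**Figure D3:**
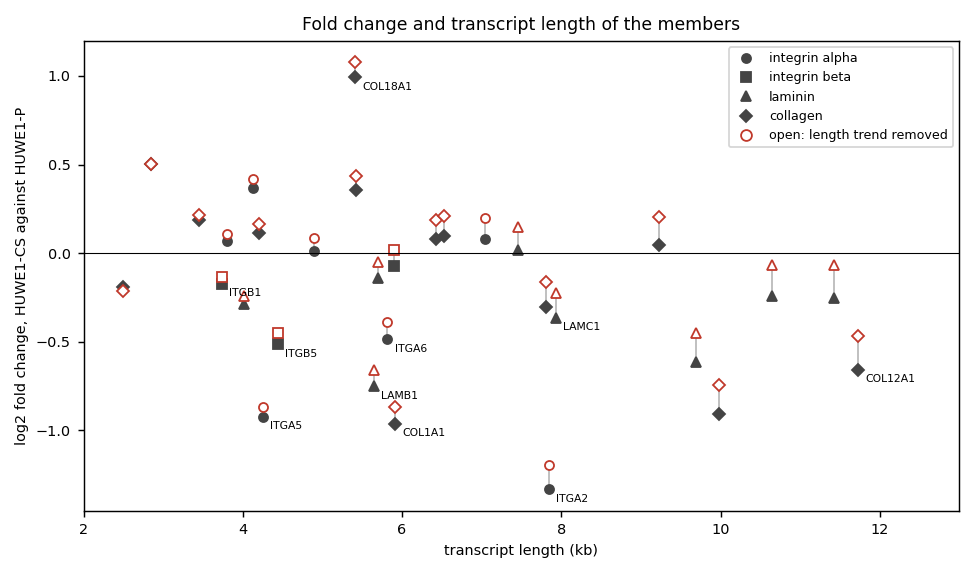
Log2 fold change in HUWE1-CS against HUWE1-P plotted against the length of the canonical transcript in kb, as fitted (filled) and with the trend of each library with transcript length removed (open); grey lines join both values of a gene and symbols mark the family. The values of long transcripts move up when the trend is removed, while ITGA2, ITGA5, LAMB1 and COL1A1 stay below -0.5 and COL18A1 above 0.9.

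The stretches before the starts of the genes that moved most are shown so that their base composition can be compared. RefSeq promoter windows (GRCh38.p14) were found for 24 of the 31 genes, and the 250 bases before the start were searched on both strands for a GC box (GGGCGG, the core bound by SP1 and its relatives), an AP-1 site (TGANTCA) and a TEAD site (GGAATG). The search also took in TATAAA, which marks some core promoters, the E-box CACGTG, which MYC can bind, and the box CCAAT. In the sequences below, written 5′ to 3′ on the strand of the gene, capitals mark these motifs in either orientation; neighbouring or overlapping motifs run together. Of the genes called lower with a window, the 4 of largest fold change against HUWE1-P are given, and both windows of COL18A1.
ITGA2 (chr5:52989102-52989351, plus strand): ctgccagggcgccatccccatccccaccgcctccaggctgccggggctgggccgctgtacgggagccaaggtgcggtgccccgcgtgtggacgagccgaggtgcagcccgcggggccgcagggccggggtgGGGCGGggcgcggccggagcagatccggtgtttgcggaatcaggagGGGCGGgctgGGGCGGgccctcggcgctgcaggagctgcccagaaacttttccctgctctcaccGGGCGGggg
ITGA5 (chr12:54419267-54419516, minus strand): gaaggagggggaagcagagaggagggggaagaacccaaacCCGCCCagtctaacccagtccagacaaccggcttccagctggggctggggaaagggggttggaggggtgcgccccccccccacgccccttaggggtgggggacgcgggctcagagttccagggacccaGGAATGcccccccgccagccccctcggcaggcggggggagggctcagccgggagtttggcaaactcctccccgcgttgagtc
LAMB1 (chr7:108003162-108003411, minus strand): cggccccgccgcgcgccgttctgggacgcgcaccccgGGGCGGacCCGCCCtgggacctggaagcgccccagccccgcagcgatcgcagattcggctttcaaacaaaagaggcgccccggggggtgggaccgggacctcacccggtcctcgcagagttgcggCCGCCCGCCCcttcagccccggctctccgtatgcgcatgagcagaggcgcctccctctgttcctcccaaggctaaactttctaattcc
COL12A1 (chr6:75206054-75206303, minus strand): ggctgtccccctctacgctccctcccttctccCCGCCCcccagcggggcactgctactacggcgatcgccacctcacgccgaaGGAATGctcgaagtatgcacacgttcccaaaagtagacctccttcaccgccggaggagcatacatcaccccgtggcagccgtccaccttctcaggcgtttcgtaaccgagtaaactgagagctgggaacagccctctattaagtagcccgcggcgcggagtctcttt
COL18A1, first window (chr21:45404915-45405164, plus strand): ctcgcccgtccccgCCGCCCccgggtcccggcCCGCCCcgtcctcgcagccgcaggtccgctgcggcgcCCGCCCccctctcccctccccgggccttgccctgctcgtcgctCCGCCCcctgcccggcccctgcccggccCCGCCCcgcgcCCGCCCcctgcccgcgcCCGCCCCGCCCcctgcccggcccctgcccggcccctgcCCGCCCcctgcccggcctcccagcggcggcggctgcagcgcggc
COL18A1, second window (chr21:45455272-45455521, plus strand): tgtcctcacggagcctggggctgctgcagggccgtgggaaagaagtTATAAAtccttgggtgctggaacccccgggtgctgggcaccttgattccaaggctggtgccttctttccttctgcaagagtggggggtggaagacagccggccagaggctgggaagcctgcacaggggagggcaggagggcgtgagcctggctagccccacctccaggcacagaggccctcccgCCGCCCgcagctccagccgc
The ITGA2 and LAMB1 windows each held 4 GC boxes and none of the other motifs. The ITGA5 and COL12A1 windows each held 1 GC box and 1 TEAD site. The first COL18A1 window held 9 GC boxes and was 88.4% G or C, and the second held 1 GC box and 1 TATAAA. Counting a gene where any of its windows held the motif, a GC box stood in 19 of the 24 genes and 46.2% of all genes in the promoter table, an AP-1 site in 2 of the 24 genes and 8.06% of all genes, and a TEAD site in 5 of the 24 genes and 14.3% of all genes. TATAAA stood in 5 of the 24 genes and 13.1% of all genes, CCAAT in 3 of the 24 genes and 37.0% of all genes, and the E-box in 1 of the 24 genes and 7.73% of all genes. The promoter table holds 27305 genes and was not limited to those in the counts table. It has 35116 windows, and the 24 genes have 35, so a gene with several windows had more room for a match. What part this had in the shares was not tested. These matches describe letters in the windows, and no binding was measured.

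Among the integrins, the collagen-binding alpha chain ITGA2 (chr5:52285170-52390609, hg19, as all gene positions here) fell most. It was at 72.0, 57.8 and 57.3 CPM in HUWE1-P, 69.5, 52.4 and 54.7 CPM in HUWE1-WT and 26.7, 22.1 and 24.97 CPM in HUWE1-CS. All 3 HUWE1-CS libraries lay below the lowest control library, and the control libraries of both lines overlapped. The log2 fold change was -1.33 (SE 0.15) against HUWE1-P and -1.26 (SE 0.16) against HUWE1-WT, that is 2.52-fold and 2.39-fold lower, with an edgeR FDR of 1.25e-11 and 2.39e-10. Its promoter window is the first of those printed above, and its call held in all 16 alternative fits.

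ITGA5 (chr12:54789045-54813050), the alpha chain of the fibronectin receptor, was the next largest. Its level was 60.2, 63.4 and 58.3 CPM in HUWE1-P, 60.3, 56.2 and 54.1 CPM in HUWE1-WT and 35.01, 26.1 and 34.8 CPM in HUWE1-CS. All HUWE1-CS libraries again lay below the controls, and the log2 fold change was -0.92 (SE 0.14) against HUWE1-P (FDR 1.55e-07, edgeR) and -0.83 (SE 0.15) against HUWE1-WT (FDR 3.38e-06). FN1, which encodes fibronectin, differed by -2.07 (SE 0.40, FDR 2.44e-05, edgeR) against HUWE1-P and -2.41 against HUWE1-WT. These FN1 values rest on few counts, with 11.8, 7.86 and 12.5 CPM in HUWE1-P and 2.37, 3.40 and 1.74 CPM in HUWE1-CS.

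ITGA6 (chr2:173292082-173371187) encodes the laminin-binding chain that pairs with ITGB4 in hemidesmosomes and with ITGB1 elsewhere. It was at 143, 182 and 175 CPM in HUWE1-P, 154, 155 and 168 CPM in HUWE1-WT and 119, 107 and 134 CPM in HUWE1-CS, the HUWE1-CS libraries being the lowest 3. The difference was smaller, -0.48 (SE 0.09) against HUWE1-P (FDR 1.10e-05, edgeR) and -0.41 (SE 0.09) against HUWE1-WT (FDR 0.00028), and without HUWE1-CS replicate 2 the call against HUWE1-WT was lost. Its partner ITGB4 gave -0.07 (SE 0.07) against HUWE1-P (FDR 0.487) and -0.23 (SE 0.07) against HUWE1-WT (FDR 0.0103), neither of which was called.

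ITGB5 (chr3:124480795-124620265), the beta chain of a vitronectin receptor, was at 88.8, 76.9 and 70.3 CPM in HUWE1-P, 86.9, 82.9 and 84.9 CPM in HUWE1-WT and 61.1, 57.8 and 45.3 CPM in HUWE1-CS. Its HUWE1-CS libraries were the lowest, with log2 fold changes of -0.51 (SE 0.12, FDR 0.000629, edgeR) against HUWE1-P and -0.63 (SE 0.12, FDR 2.00e-05) against HUWE1-WT. The call against HUWE1-P was lost with DESeq2 and without HUWE1-P replicate 1 or HUWE1-CS replicate 3. The alpha chain it pairs with, ITGAV, was not called, at 0.08 (SE 0.11) and 0.04 (SE 0.11), with 95% intervals of -0.13 to 0.29 and -0.17 to 0.26. Within a library, ITGB5 had 0.890 ± 0.18 counts for each ITGAV count in HUWE1-P, 0.922 ± 0.088 in HUWE1-WT and 0.583 ± 0.14 in HUWE1-CS (SD, n = 3).

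ITGB1 (chr10:33176201-33294720), the common partner, moved little in size. It was at 477, 467 and 471 CPM in HUWE1-P, 479, 504 and 504 CPM in HUWE1-WT and 411, 402 and 444 CPM in HUWE1-CS, and the HUWE1-CS libraries were the lowest 3. The log2 fold change was -0.17 (SE 0.06) against HUWE1-P, with an edgeR FDR of 0.0348 that missed the threshold, and -0.24 (SE 0.06) against HUWE1-WT with 0.00206. Without HUWE1-CS replicate 1 or 2, or HUWE1-WT replicate 2 or 3, it was not called against HUWE1-WT. For each ITGB1 count, ITGA2 had 0.132 ± 0.016 counts in HUWE1-P, 0.119 ± 0.023 in HUWE1-WT and 0.0588 ± 0.0054 in HUWE1-CS (SD, n = 3). The same ratio for ITGA5 was 0.129 ± 0.0064, 0.115 ± 0.0098 and 0.0763 ± 0.010.

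The laminin-binding alpha chain ITGA3 was high in all lines, with 311, 326 and 336 CPM in HUWE1-P, 363, 323 and 329.7 CPM in HUWE1-WT and 349, 349 and 287 CPM in HUWE1-CS. Its libraries overlapped, and the 95% interval of the log2 fold change was -0.12 to 0.15 against HUWE1-P and -0.18 to 0.10 against HUWE1-WT. ITGA7, a laminin-binding chain best known from muscle, had the smallest p of the uncalled alpha chains against HUWE1-P, at 0.37 (SE 0.28, FDR 0.363, edgeR), and 0.70 (SE 0.30) against HUWE1-WT (FDR 0.0736). The remaining alpha chain, ITGAE, was not called in any comparison.

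**Figure D4:**
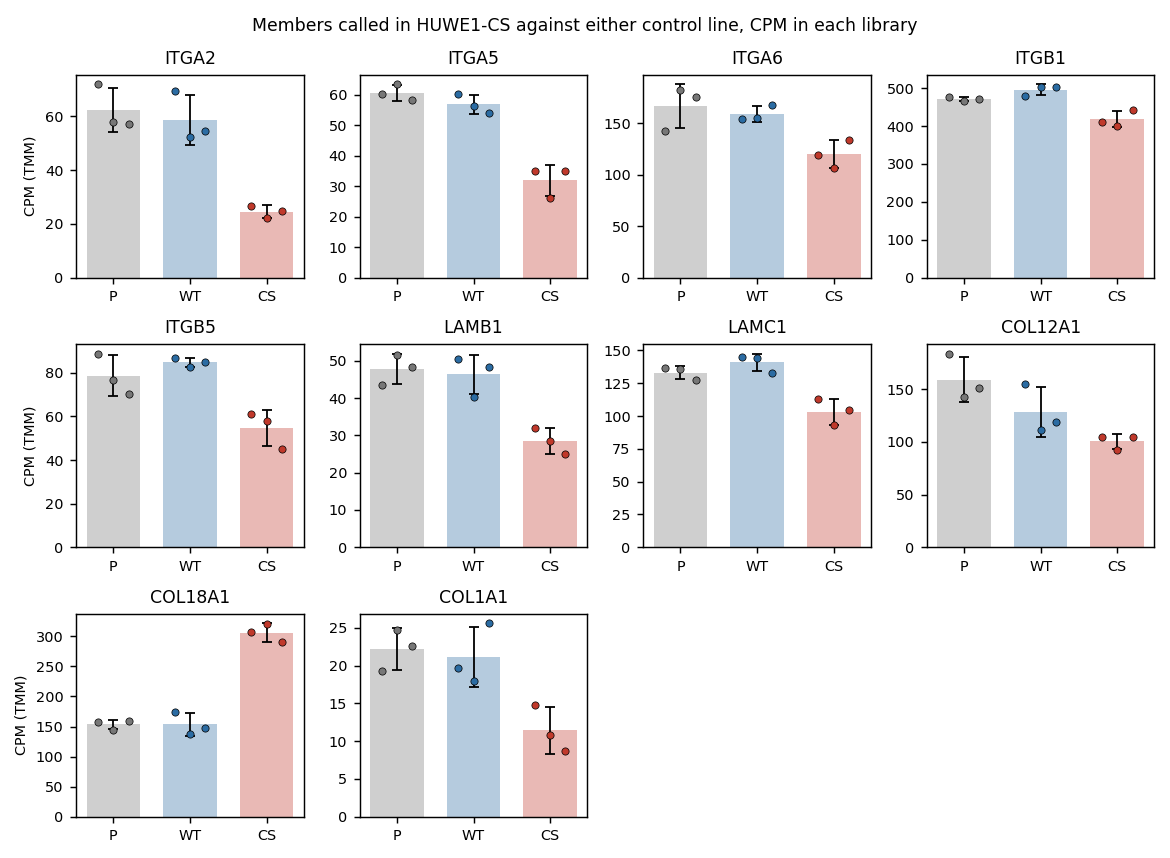
CPM (TMM-scaled) of the 10 genes called in HUWE1-CS against either control line; points are single libraries, bars the mean of 3 libraries and whiskers 1 SD, in HUWE1-P (P, grey), HUWE1-WT (WT, blue) and HUWE1-CS (CS, red). In 9 panels the 3 red points lie below all grey and blue points, and for COL18A1 they lie above them.

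Among the laminins, LAMB1 (chr7:107564244-107643658), a beta chain of many laminin trimers, fell most. It was at 43.4, 51.6 and 48.2 CPM in HUWE1-P, 50.4, 40.4 and 48.3 CPM in HUWE1-WT and 32.04, 28.4 and 24.97 CPM in HUWE1-CS. No HUWE1-CS library reached the controls, and the log2 fold change was -0.75 (SE 0.16) against HUWE1-P (FDR 7.88e-05, edgeR) and -0.70 (SE 0.16) against HUWE1-WT (FDR 0.000324). LAMB1 is the gene whose window of 4 GC boxes was printed above.

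LAMC1 (chr1:182992555-183114727), the gamma chain of most trimers, was at 137, 136 and 127 CPM in HUWE1-P, 145, 145 and 133 CPM in HUWE1-WT and 113, 93.0 and 105 CPM in HUWE1-CS. Its log2 fold change was -0.36 (SE 0.09) against HUWE1-P (FDR 0.00168, edgeR) and -0.45 (SE 0.09) against HUWE1-WT (FDR 9.52e-05). All 3 HUWE1-CS libraries lay below the controls. The call held in 12 of 16 alternative fits against HUWE1-P and 16 of 16 against HUWE1-WT. LAMC1 was not called against HUWE1-P without HUWE1-P replicate 1 or HUWE1-CS replicate 2.

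LAMA5, the alpha chain of the main basement membrane laminin of adult epithelium, was at 249, 268 and 215 CPM in HUWE1-P, 245, 202 and 201 CPM in HUWE1-WT and 193, 197 and 221 CPM in HUWE1-CS. The groups overlapped, and its log2 fold change of -0.25 (SE 0.08) against HUWE1-P had an edgeR FDR of 0.0103, just above the threshold, while that against HUWE1-WT was -0.08 (SE 0.08, FDR 0.491). Without HUWE1-P replicate 3, HUWE1-WT replicate 1 or HUWE1-CS replicate 3, LAMA5 was called against HUWE1-P. LAMB3 and LAMA3, chains of an epithelial laminin, were not called: LAMB3 gave -0.29 (SE 0.13) against HUWE1-P (FDR 0.0953) and LAMA3, with at most 22 counts in a library, -0.24 (SE 0.32, FDR 0.63). The laminin genes LAMA2, LAMB2 and LAMC3 were not called in any comparison.

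COL18A1 (chr21:46825080-46933634) was the gene that rose. It encodes the core of a basement membrane proteoglycan whose end can be cleaved off as endostatin. It was at 157, 145 and 159 CPM in HUWE1-P, 174, 138 and 148 CPM in HUWE1-WT and 307, 321 and 290.3 CPM in HUWE1-CS. The lowest HUWE1-CS library stood well above the highest control library, and the control lines overlapped. The log2 fold change was 0.99 (SE 0.08) against HUWE1-P and 1.00 (SE 0.08) against HUWE1-WT, a 1.99-fold and 2.00-fold rise, with an edgeR FDR of 4.47e-20 and 5.69e-20. The call held in all 16 alternative fits of each comparison.

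In the annotation, 1156 exonic bases of COL18A1 are shared with SLC19A1, a folate transporter gene on the opposite strand. The library kit does not keep the strand, so reads from the shared stretch cannot be told apart. SLC19A1 went the other way, with -0.39 (SE 0.10, FDR 0.00241) against HUWE1-P and -0.37 (FDR 0.00457) against HUWE1-WT. The chromosome 21 collagens COL6A1, 468049 bases further on, and COL6A2, which both encode chains of collagen VI, were not called. Their 95% intervals against HUWE1-P were -0.06 to 0.29 and -0.01 to 0.38.

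COL1A1 (chr17:48261462-48278993), the main chain of fibrillar collagen I, was expressed at a low level, with 19.2, 24.7 and 22.6 CPM in HUWE1-P, 19.7, 18.0 and 25.6 CPM in HUWE1-WT and 14.8, 10.8 and 8.71 CPM in HUWE1-CS. All HUWE1-CS libraries were below the controls. Its log2 fold change was -0.96 (SE 0.24) against HUWE1-P (FDR 0.000901, edgeR) and -0.88 (SE 0.24) against HUWE1-WT (FDR 0.00346). Under DESeq2 and without HUWE1-CS replicate 3 it was called in neither comparison, and without HUWE1-CS replicate 2 or HUWE1-WT replicate 3 it was not called against HUWE1-WT.

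COL12A1 (chr6:75794042-75915983), a collagen that coats fibrils, was highest on average in HUWE1-P and lowest in HUWE1-CS, with 184, 143 and 151 CPM in HUWE1-P, 155, 111 and 119 CPM in HUWE1-WT and 105, 91.9 and 105 CPM in HUWE1-CS. HUWE1-WT replicates 2 and 3 lay near the HUWE1-CS libraries, and HUWE1-WT replicate 1 among the HUWE1-P libraries. The log2 fold change was -0.66 (SE 0.10) against HUWE1-P (FDR 5.88e-08, edgeR) and -0.35 (SE 0.10) against HUWE1-WT (FDR 0.00633), and that of HUWE1-WT against HUWE1-P was -0.31 (SE 0.09, FDR 0.401). Without HUWE1-WT replicate 1, COL12A1 was called between the control lines and was no longer called in HUWE1-CS against HUWE1-WT. Leaving out any of the HUWE1-CS libraries also ended the call against HUWE1-WT.

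The uncalled collagen with the smallest p against HUWE1-P was COL4A4, a chain of the basement membrane network, at -0.91 (SE 0.36, FDR 0.0486, edgeR) and -0.34 (SE 0.39) against HUWE1-WT (FDR 0.579). It had fewer than 10 counts in some libraries. The other 9 collagen genes were not called in any comparison. Over all 22 genes not called against HUWE1-P, log2 fold changes ran from -0.91 to 0.50 and 95% intervals reached from -1.62 to 1.30, the widest belonging to genes of few counts: the 7 genes with under 10 counts in a library had standard errors of 0.29 to 0.46.

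Genes that work with integrins and matrix proteins also held calls in both directions. Of 118 genes in 6 lists around adhesion and matrix, 32 were called lower and 15 higher in HUWE1-CS against HUWE1-P, and 33 and 11 against HUWE1-WT, while 0 were called between the control lines (0 with DESeq2; 9 of the 118 had an unadjusted p under 0.05 with edgeR). Against the backgrounds of 17.0% and 15.5% of all genes called, these were 39.8% and 37.3% of the lists. By direction, 8.58% of all genes were called lower and 8.46% higher against HUWE1-P, and 8.08% and 7.42% against HUWE1-WT. These shares are the background for each list below, and in lists this short they amount to few genes. Where 1 value stands for a gene below, it is the log2 fold change against HUWE1-P of a gene called there by edgeR.

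Of 25 integrin adhesion adaptors, 6 were lower and 2 higher against HUWE1-P, and 7 lower and none higher against HUWE1-WT. The list's median was 0.07 and -0.03. VCL (vinculin, which links talin to actin) differed by -0.67 (SE 0.08, FDR 1.62e-10) against HUWE1-P and -0.68 against HUWE1-WT, and PXN (paxillin, a scaffold of focal adhesions) by -0.54. PTK2, the focal adhesion kinase, was higher by 0.29 and BCAR1, a scaffold it phosphorylates with SRC, by 0.39; neither was called against HUWE1-WT.

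Of 16 hemidesmosome partners, tetraspanins and other membrane proteins, 4 were lower and 2 higher against HUWE1-P, with 5 and 2 against HUWE1-WT. The medians were -0.13 and -0.15. The other membrane proteins were CD47, CD46, BSG, SLC3A2, PLAUR, CD44 and CAV1. DST (dystonin, whose epithelial form ties ITGB4 to keratin) differed by -1.30 (SE 0.10, FDR 1.67e-19) against HUWE1-P and -1.24 against HUWE1-WT. CAV1, the caveolin that coats caveolae, fell too (-0.57), and the tetraspanins CD81 (0.36) and CD63 (0.34) rose against HUWE1-P, CD63 not being called against HUWE1-WT (0.20, FDR 0.0332).

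Matrix receptors other than integrins split evenly, with 2 of 10 higher and 2 lower against HUWE1-P, and 2 and 1 against HUWE1-WT (medians 0.14 and 0.10). RPSA, a ribosomal protein also known as a laminin receptor, was higher (0.42), as was DDR1, a collagen-binding receptor kinase (0.48). ADGRG6, an adhesion receptor that binds collagen IV, was lower (-0.76), and so was DAG1, the laminin-binding dystroglycan (-0.25), which was not called against HUWE1-WT (-0.17, FDR 0.0676).

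Of 18 other matrix proteins, 7 were lower and 2 higher against HUWE1-P, with 7 and 1 against HUWE1-WT and medians of -0.27 and -0.31. VCAN, the large proteoglycan versican, differed by -2.67 (SE 0.14, FDR 2.20e-30) against HUWE1-P and -2.78 against HUWE1-WT, and CCN1, a matricellular ligand of integrins, by -1.89 (SE 0.25, FDR 1.15e-09) against HUWE1-P and -1.90 against HUWE1-WT. The genes that rose were LTBP4 (0.35) and LTBP2 (1.51), which associate with elastic fibres. LTBP2 was not called against HUWE1-WT (1.12, FDR 0.0415, edgeR). Its fold changes rest on few counts, with 1.86, 1.12 and 4.82 CPM in HUWE1-P and 11.3, 6.81 and 5.81 CPM in HUWE1-CS.

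Of 29 genes of collagen modification and secretion, 9 were lower and 3 higher against HUWE1-P, with 8 and 3 against HUWE1-WT and medians of -0.15 and -0.25. COLGALT1, which adds galactose to collagen hydroxylysine, was lower (-0.55). Of the crosslinking lysyl oxidases, LOXL2 was at -1.51 and LOXL1 at 1.39, and LOXL3 was not called (-0.46, FDR 0.438, edgeR). The LOXL1 value rests on few counts, with 7.45, 6.17 and 6.26 CPM in HUWE1-P and 13.6, 19.8 and 18.6 CPM in HUWE1-CS. LOXL2 was at 9.49, 13.6 and 8.13 CPM in HUWE1-CS. FKBP10, a collagen chaperone, was higher (0.50).

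Of 20 matrix proteases and inhibitors, 4 were lower and 4 higher against HUWE1-P, with 5 and 3 against HUWE1-WT and medians of 0.13 and 0.01. The membrane protease ADAM9 (-0.81) and the inhibitor TIMP2 (-0.63) were lower, whereas the serpin SERPINB5 (1.36) and the protease CTSL (0.51) were higher. CTSL was not called against HUWE1-WT (0.38, FDR 0.0156).

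**Figure D5:**
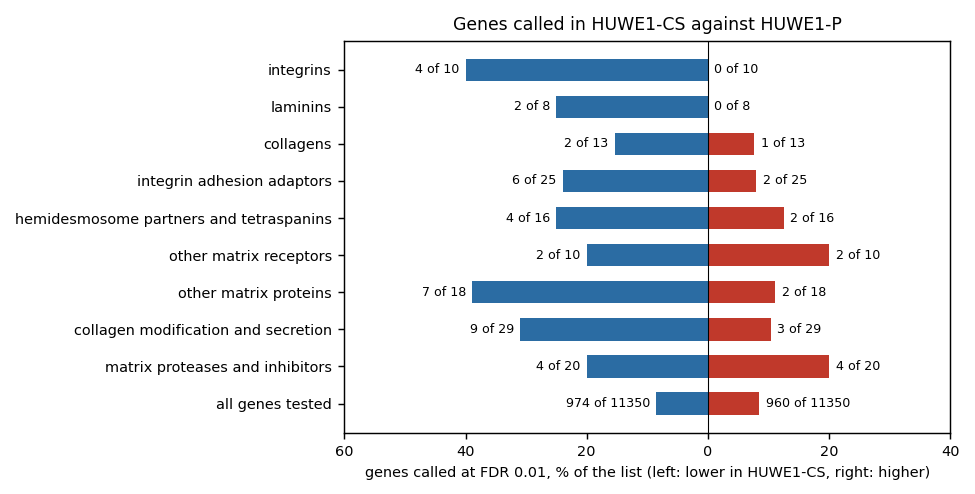
Share of each gene list called at an FDR of 0.01 in HUWE1-CS against HUWE1-P, with genes lower in HUWE1-CS to the left (blue) and higher to the right (red), and their numbers beside the bars. Integrins and laminins have bars only to the left, and the bottom bar shows all 11350 genes. The list of hemidesmosome partners and tetraspanins also holds other membrane proteins.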

How the data were processed

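The authors deposited a table of raw read counts per gene from 9 libraries of poly(A) RNA (single-end reads). Per the labels and the study's methods, reads were trimmed with Skewer and aligned to hg19 with STAR 2.5.4. The counting tool, its annotation and its strand setting are not given in the sources used here. The authors' comparison tables, which hold fold changes, p-values and FDR from edgeR 3.26.8, were not used. The 147 rows without a symbol (0.505% of counts) have gene IDs and stayed in.

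All 11350 genes were fitted with edgeR 4.0.16 (TMM, glmQLFit with the estimator of the older version, glmQLFTest) on all 9 libraries, with line as the only term, Benjamini-Hochberg adjustment over all genes and calls at an FDR of at most 0.01. No filter on low counts was added. The common biological coefficient of variation was 4.77%. Positions and lengths came from GENCODE release 44 on GRCh37 (the same build as hg19), and promoter sequences from RefSeq. The libraries of 1610984 to 2060349 counts limit what can be seen in genes of few counts. Replicates of a line differed by more than sampling noise.

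Groups were taken from the sample labels. The genes and lists were chosen with earlier results of these data known. Of the genes whose symbols match the naming rule, 1 is not reported here; it stayed in the fit over all genes. Values are given for every member called in any comparison, and in each subfamily for the member of highest level per length and the uncalled member of smallest p in HUWE1-CS against HUWE1-P, and from each other list for up to 2 called genes of smallest p in each direction. ITGB4, ITGAV, LAMA3, LAMB3, COL6A1, COL6A2, FN1, SLC19A1 and LOXL3 were added after their values were seen, as partners, neighbours, ligands or relatives.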

Additional observations from a re-analysis of the deposited data

How the results depend on the processing

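Each result was refitted with DESeq2 1.42.0, RLE size factors, the newer edgeR estimator, only genes with at least 10 counts in every library, only the 2 lines compared, the replicate number as a block, the trend with transcript length removed, and without each of the 9 libraries in turn, and counts also at an FDR of 0.05. With DESeq2, 6 of the 31 genes were called in HUWE1-CS against HUWE1-P, and of the genes in the other lists 30 against HUWE1-P and 27 against HUWE1-WT. COL1A1 was lost in both comparisons, ITGB5 and LAMC1 only against HUWE1-P and COL12A1 only against HUWE1-WT. With the length trend removed the medians against HUWE1-P and HUWE1-WT were -0.065 and -0.11, beside 0.006 and 0.012 over all genes. An FDR of 0.05 called 1 gene of the other lists between the control lines. Without single libraries, the number called lay between 7 and 10 against HUWE1-P, between 6 and 10 against HUWE1-WT and between 0 and 1 between the control lines. The medians were -0.22 to -0.13, -0.21 to -0.13 and -0.05 to 0.04. Over all genes, these fits called 1466 to 2018 against HUWE1-P, 1373 to 1766 against HUWE1-WT and 1 to 19 between the control lines. The causes of these differences were not tested. Of 1467 refitted fold changes of single genes, 24 lost and 9 gained a call, and none of a called gene changed sign. Most of the 1467 belong to genes not called in the main fit, which had no call to lose. Against HUWE1-WT, COL12A1 kept its call in 10 of 16 fits, and COL1A1 and ITGB1 each in 12 of 16.

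Libraries of the same number deviated together no more than weakly (9 correlations from -0.03 to 0.09, beside 18 from -0.11 to 0.04 for other numbers). Values this weak cannot decide whether the numbers pair the libraries. With the replicate block 10 genes were called against HUWE1-P and 11 against HUWE1-WT, gaining LAMA5 and ITGB4. Of all genes, the block called 2021 and 1835. The 7 genes with under 10 counts in a library had standard errors of 0.29 to 0.46 in HUWE1-CS against HUWE1-P.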
